A study of Mus musculus with 6 samples.

Results

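Extracellular matrix proteases and the urokinase system were examined by RNA sequencing in NIH-3T3 cells, an established mouse embryo fibroblast line of wild-type genotype. Of the 6 libraries, 3 came from cells grown on Nanopore #3 scaffolds and 3 from cells on standard culture plates. All cells were kept in DMEM with fetal bovine serum and antibiotics. The labels give neither the material of the scaffold nor the time of culture, and do not say whether the replicates were separate cultures.

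The genes described are the matrix metalloproteinases Mmp3, Mmp10, Mmp13 and Mmp19, the aggrecanase Adamts5, the urokinase Plau and its receptor Plaur. They were picked by name, and all 7 were found among the 581 genes of the deposited table. That table holds genes the authors had selected as differing between the same 6 libraries. The scaffold to plate difference therefore chose the members, and their values are a description with no test. The smallest log2 ratio of group means in the table was 1.01 among higher genes and -0.998 among lower ones. Mmp19, with plate values 2.05 times the scaffold values, was the member nearest to that limit, and genes outside it were not analysed here.

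Matrix metalloproteinases are secreted as inactive precursors and cut collagens, proteoglycans and other matrix proteins once their propeptide is removed. Urokinase is a serine protease that binds its receptor at the cell surface and turns plasminogen into plasmin, which can itself activate several metalloproteinase precursors. Fibroblasts are a main source of these enzymes in connective tissue, and growth factors and inflammatory signals are known to induce several of them through AP-1 and ETS transcription factors.

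Each value is a read count divided by the size factor of its library, so values of different genes compare only after division by gene length. The 5 libraries with accepted whole reads held 264178 to 293198 reads over the table, and the size factors ran from 0.944 to 1.09. The 7 members took 2.36% to 2.49% of the summed values of the 581 selected genes in the scaffold libraries and 1.62% to 1.71% in the plate libraries. Of 8 fibroblast markers looked for, Col1a1 and Col1a2 were in the table, both lower on the scaffold (log2 differences -1.31 and -1.08). Quantile normalisation gives 0 to any gene of equal rank in every library, so its 0 for Col1a2 is not read. The part of both genes in the results was not tested. None of 6 macrophage or 4 endothelial markers was in the table. It holds selected genes only, so a marker missing from it may still be expressed. Among myeloid genes off the list, Mrc1, Clec4d and C3ar1 were higher (log2 differences 1.68, 1.42 and 1.07) and Cd33 lower (-1.56). Their part in the results was not tested. Of 4 epithelial markers, the keratin gene Krt8 was in the table, at 29.8, 37.1 and 37.6 on the scaffold and 17.5, 13.4 and 13.3 on plates. The part of Krt8 in the results was not tested. In whole cultures, fewer cells of a type and less RNA per cell cannot be told apart.

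On the scaffold, 5 members were higher (Mmp13, Mmp10, Plau, Plaur and Mmp3) and 2 were lower (Adamts5 and Mmp19). The scaffold and plate values did not overlap in any of the 7. In the whole table the groups did not overlap in 98.6% of genes, and 99.7% passed an adjusted p of 0.05 in limma, 32.2% as higher and 67.5% as lower. Because the table was selected on this contrast, nothing is read from those shares. The median log2 difference of the members was 1.52, beside -1.16 over all genes in the table. It was 1.39 among all called higher genes and -1.38 among all called lower ones. The sign of each median follows from how many chosen genes lie on each side, so nothing is read from it. The excess of lower genes in the table depended on scaling in size, though not in direction: 67.7% of called genes were lower as deposited, 52.4% once every library had the same median and 53.1% under quantile normalisation. Those rescalings moved the median of all genes upward by 0.74 and 0.63 on the log2 scale. The sign of each member's difference was the same under both, with Mmp19 nearest to 0, at -0.28 with equal medians. At that setting Mmp19 no longer passed the threshold (adjusted p = 0.0535, limma).

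**Figure D1:**
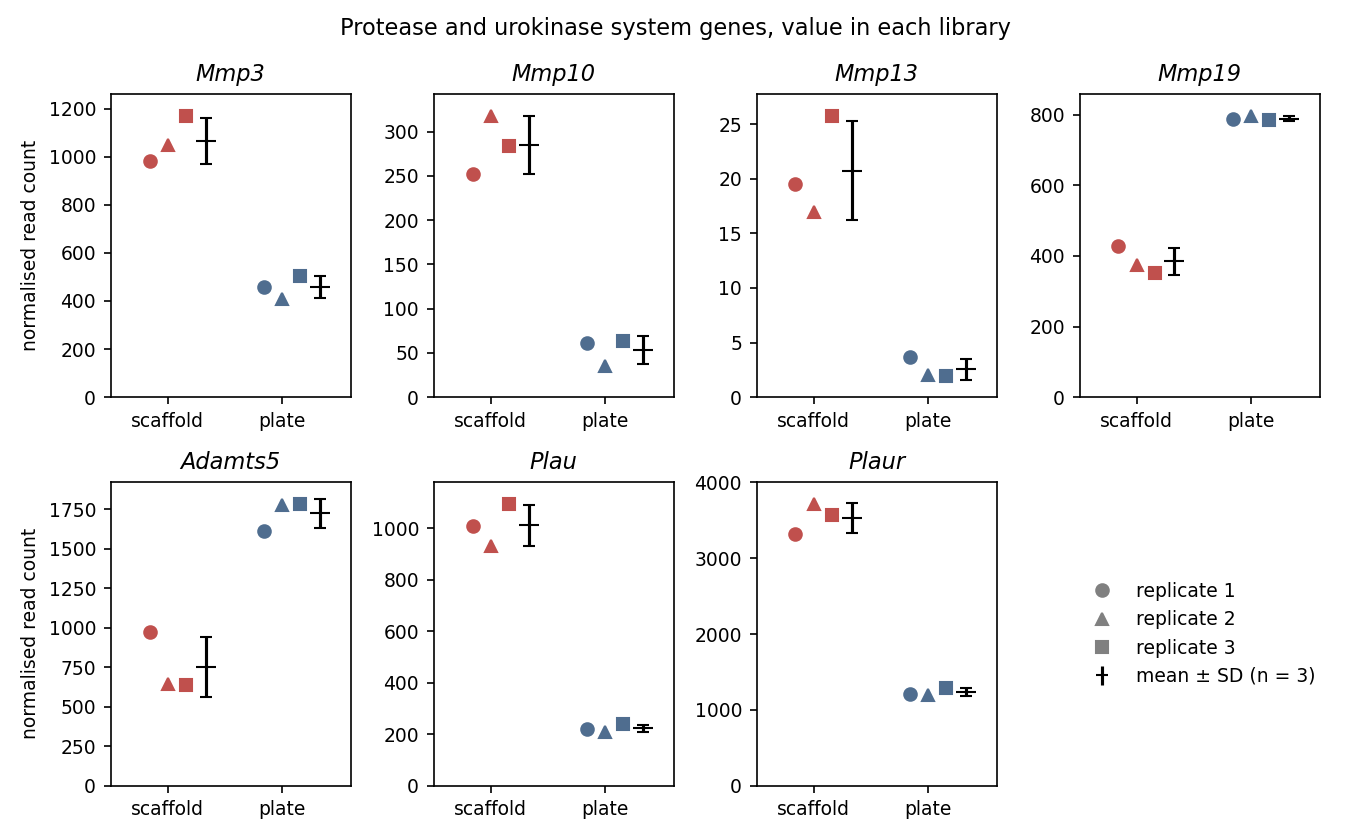
Normalised read count (vertical axes, each from 0) of the 7 members in each scaffold and plate library, with the mean and SD of each group (n = 3 each). Mmp3, Mmp10, Mmp13, Plau and Plaur lie higher on the scaffold, Mmp19 and Adamts5 lower, and in no panel do the groups overlap.

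The 5 metalloproteases share a short coding stretch for the catalytic site, which is shown because it defines what these genes have in common. In GENCODE M21 (GRCm38), it lies at chr9:7449775-7449807 in Mmp3, chr9:7504858-7504890 in Mmp10, chr9:7276573-7276605 in Mmp13 and chr10:128795673-128795705 in Mmp19, all on the plus strand. In Adamts5, on the minus strand of chromosome 16, an exon junction splits it into chr16:85887817-85887826 and chr16:85878015-85878037. Each stretch is 33 bases, and capitals mark the histidine codons that hold the catalytic zinc ion. Plau is a serine protease and has in its place the codon of the active-site serine, in capitals, at chr14:20842274-20842291 on the plus strand. Plaur is a receptor and no protease.
Mmp3: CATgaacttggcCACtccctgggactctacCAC
Mmp10: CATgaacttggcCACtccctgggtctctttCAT
Mmp13: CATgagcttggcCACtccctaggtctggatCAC
Mmp19: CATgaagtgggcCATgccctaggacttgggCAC
Adamts5: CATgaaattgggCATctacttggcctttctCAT
Plau: ggcgatTCTggaggaccg

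Promoter sequence was at hand for 4 members, all of them higher on the scaffold, from RefSeq on GRCm38.p6. Each window ran from 250 bases before the annotated start to 50 after it. The AP-1 motif TGANTCA, the binding letters of Fos and Jun proteins, was present once in all 4 windows. It was present in 7.81% of the 32851 mouse promoter windows of the same length. It began 63 bases before the start in Mmp10, 46 in Mmp3, 35 in Mmp13 and 69 in Plaur. The TATA box letters TATAAA followed it in the 3 metalloproteinases, with 34 bases between the first letters in Mmp10, 39 in Mmp3 and 19 in Mmp13. TATAAA began 29 bases before the annotated start in Mmp10, but 7 in Mmp3 and 16 in Mmp13. Whether the cells use these annotated starts, or these letters as a TATA box, was not tested. It was not in the Plaur window, and 13.6% of all windows hold it. These matches are a description of letters and show no binding.

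The 150 bases before each annotated start are printed so that the motifs can be seen in place, with AP-1 and TATA motifs in capitals. All 4 lie on the plus strand, at chr9:7502192-7502341 for Mmp10, chr9:7445672-7445821 for Mmp3, chr9:7272364-7272513 for Mmp13 and chr7:24462333-24462482 for Plaur.
Mmp10: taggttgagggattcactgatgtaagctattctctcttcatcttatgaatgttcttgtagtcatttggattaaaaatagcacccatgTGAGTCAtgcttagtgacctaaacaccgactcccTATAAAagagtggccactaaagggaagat
Mmp3: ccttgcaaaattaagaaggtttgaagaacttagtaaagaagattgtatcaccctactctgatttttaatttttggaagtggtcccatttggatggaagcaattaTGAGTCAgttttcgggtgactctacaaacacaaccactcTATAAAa
Mmp13: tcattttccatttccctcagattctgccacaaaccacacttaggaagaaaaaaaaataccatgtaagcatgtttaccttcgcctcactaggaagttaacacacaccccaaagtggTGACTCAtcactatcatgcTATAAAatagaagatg
Plaur: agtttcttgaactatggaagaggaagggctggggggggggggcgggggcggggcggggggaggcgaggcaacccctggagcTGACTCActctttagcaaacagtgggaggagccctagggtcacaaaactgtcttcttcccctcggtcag

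Searched on both strands, the ETS motif AGGAAG was present in 3 of the 4 windows, Mmp3, Mmp13 and Plaur, against 35.3% of all windows. The RUNX motif ACCACA was present in Mmp13, 118 bases before the start, against 16.8% of all windows. No motif overlapped another in these windows. Mmp19, Adamts5 and Plau had no promoter entry.

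**Figure D2:**
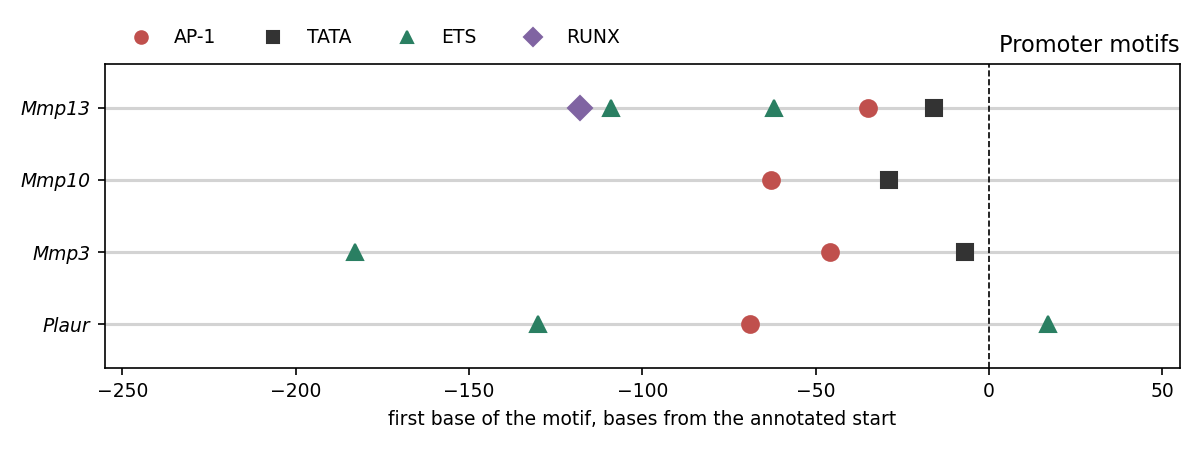
Position of the first base of each motif (horizontal axis, bases from the annotated start, dashed line) in the 4 promoter windows. An AP-1 motif lies 35 to 69 bases before the start in each, with the letters TATAAA (marked TATA) between it and the start in Mmp13, Mmp10 and Mmp3.

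Mmp13, the main interstitial collagenase of rodents, had the largest fold of the members but rested on few reads. Its values were 19.5, 16.9 and 25.7 on the scaffold, against 3.68, 2.06 and 1.90 on plates. The lowest scaffold library was 4.61 times the highest plate library. In reads, these were 19 and 16 in scaffold replicates 1 and 2 and 4, 2 and 2 in the plate libraries. The ratio of normalised reads was 7.10, with a 95% exact interval of 3.23 to 17.7 that covers counting error only. The log2 difference was 2.63 (SE 0.37), twelfth in size among the 187 called higher genes, and 3.06 with a pseudocount of 0.01 in place of 1. The gene (ENSMUSG00000050578) lies at chr9:7272514-7283331, and its exons overlap those of no other annotated gene.

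Mmp10, stromelysin-2, an activator of other metalloproteinase precursors, was at 252, 318 and 284 on the scaffold, against 60.7, 34.99 and 63.8 on plates. Scaffold libraries were all at least 3.95 times the highest plate library, and plate replicate 2 stood low in its group. On the log2 scale the difference was 2.44 (SE 0.23). The plate SD of 15.8 was larger than the 7.13 that read counting alone gives. Without plate replicate 2 the log2 difference was 2.17.

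Mmp3, stromelysin-1, which cuts proteoglycans, laminin and fibronectin and activates collagenase precursors, started from a higher plate level and differed less. Its values were 982, 1048 and 1169 on the scaffold, against 459.7, 409.6 and 503 on plates. Each scaffold library was at least 1.95 times the highest plate library. This was a log2 difference of 1.22 (SE 0.11) and a ratio of means of 2.33. Plate replicate 2 was the lowest plate library in Mmp3 as in Mmp10, and also in Plau and Plaur.

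Mmp3 and Mmp10 are close relatives, so their reads may not be fully separable. The coding sequences, 1437 bases long in Mmp3 and 1428 in Mmp10, were 80.4% identical over the bases that align, while Mmp13 was 63.8% identical to Mmp3 and 63.6% to Mmp10. The longest exact run their coding sequences share was 104 bases. It lies across an exon junction at chr9:7447092-7447177 and chr9:7447268-7447285 in Mmp3, and at chr9:7503305-7503390 and chr9:7503481-7503498 in Mmp10, plus strand (GRCm38). Reads wholly inside it fit both genes, and how the authors counted such reads is not given in the sources used here. It is printed because it also holds, in capitals, the codons of the cysteine switch, the propeptide segment that keeps these enzymes inactive.
Mmp3 and Mmp10: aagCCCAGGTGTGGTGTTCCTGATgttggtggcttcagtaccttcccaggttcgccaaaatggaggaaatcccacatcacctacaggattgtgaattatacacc

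The 3 genes lie in 1 cluster of metalloproteinase genes on chromosome 9. GENCODE M21 places 10 Mmp genes there within 427 kb, at chr9:7272514-7699585, with Mmp3 at chr9:7445822-7455975 and Mmp10 at chr9:7502352-7510240. Mmp10 begins 46.4 kb after the end of Mmp3, and Mmp3 begins 162 kb after the end of Mmp13. Of the 10 genes, 4 were in the table, and all 4 were higher on the scaffold, beside 32.2% of the whole table. Mmp3, Mmp10 and Mmp13 had been picked by name. The fourth was Mmp1b, one of a pair of mouse relatives of the human collagenase MMP1, at 9.25, 11.7 and 7.92 on the scaffold, against 0, 4.12 and 0.952 on plates. Its reads were 9 and 11 in scaffold replicates 1 and 2 and 0, 4 and 1 on plates, a normalised ratio of 6.49 with an exact 95% interval of 2.36 to 22.1. Its log2 difference of 2.29 (SE 0.60) depended on the pseudocount of 1, becoming 3.65 with 0.1 and 4.80 with 0.01. It was 1.73 without plate replicate 1, the library at 0, and 2.91 without plate replicate 2. Mmp1b is an uncertain gene: its coding sequence is 90.6% identical to that of Mmp1a, and 10.8% of its exon bases overlap Mmp12 on the other strand.

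**Figure D3:**
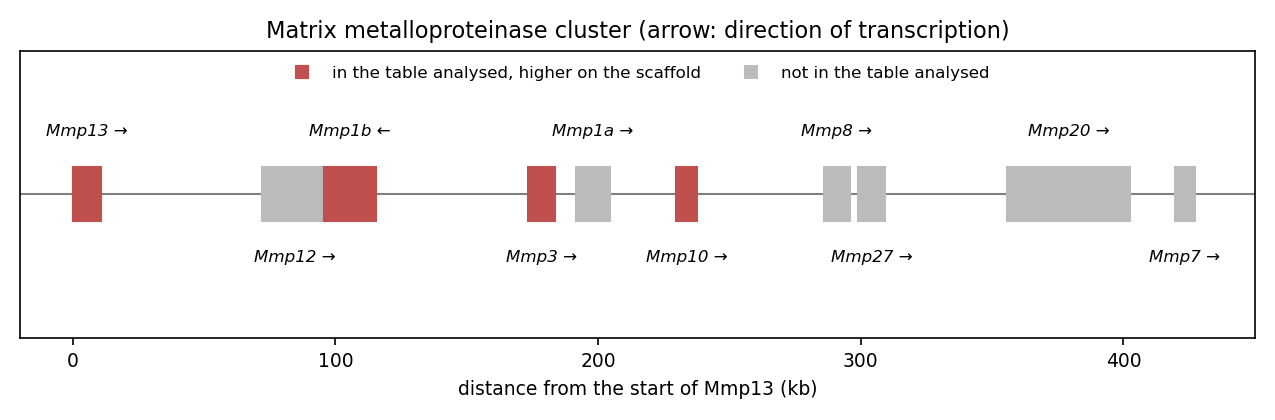
Matrix metalloproteinase genes of the cluster on chromosome 9, drawn to scale by distance from the start of Mmp13 (horizontal axis, kb), with arrows for the direction of transcription. Mmp13, Mmp1b, Mmp3 and Mmp10 were in the table and higher on the scaffold, and the grey genes were not in it.

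Mmp19, which cuts basement membrane proteins, lies outside that cluster, at chr10:128790910-128800824, and went the other way. Its values were 428, 375 and 350.4 on the scaffold, against 787, 796 and 784 on plates. Every plate library was at least 1.83 times the highest scaffold library. The log2 difference was -1.04 (SE 0.10), and with equal medians it was -0.28. The plate SD of 6.40 was smaller than the 27.6 that counting alone gives, so the closeness of the plate values is not a measure of precision. Of the exon bases of Mmp19, 22.3% overlap Tmem198b, which is read from the other strand, and whether counting used strand is not given in the sources used here.

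Adamts5, which cuts the proteoglycans aggrecan and versican, was at 974, 644 and 638 on the scaffold, against 1615, 1775 and 1781 on plates. The groups were apart by a ratio of at least 1.66 between any plate and any scaffold library. Scaffold replicate 1 stood high in its group, 0.40 above the scaffold mean on the log2 scale, and the scaffold coefficient of variation was 25.5%, against 5.44% on plates. The log2 difference was -1.22 (SE 0.15), and it was -1.42 without that library. Equal medians gave -0.46 and quantile normalisation -1.79. The gene is at chr16:85856173-85901828 and has the longest exon length of the members, 10791 bases.

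Among the 5 metalloproteases, the scaffold replicate that stood highest was not the same. Replicate 1 was highest in Mmp19 and Adamts5 and lowest in Mmp3 and Mmp10. Replicate 3 was highest in Mmp3 and Mmp13 and lowest in Mmp19 and Adamts5. Thus scaffold replicate 1 lay nearest to the plate values in Mmp3, Mmp10, Mmp19 and Adamts5, though not in Mmp13.

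Plau, the urokinase-type plasminogen activator (chr14:20836660-20843385), was at 1009.8, 931 and 1092 on the scaffold, against 221, 208 and 238 on plates. The lowest scaffold library was 3.91 times the highest plate library. The log2 difference was 2.18 (SE 0.10), a ratio of means of 4.55, and ranged from 2.12 to 2.24 when single libraries were left out. The plate SD of 15.1 was close to the 14.6 that read counting gives.

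Plaur, the urokinase receptor (chr7:24462484-24475968), was the most abundant member. Its values were 3320.4, 3708 and 3564 on the scaffold, against 1215, 1195 and 1289.6 on plates. All scaffold libraries were at least 2.57 times the highest plate library. The log2 difference was 1.52 (SE 0.07), the smallest error of the members. Quantile normalisation gave 0.83 in its place, while equal medians gave 2.28.

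Enzyme and receptor were thus both higher, but by unequal amounts. Per kb of gene length, the Plaur to Plau ratio was 2.97, 3.60 and 2.95 in the scaffold libraries, against 4.98, 5.20 and 4.90 in the plate libraries. The mean ratio was 3.18 ± 0.37 on the scaffold and 5.03 ± 0.15 on plates (SD, n = 3 each), with no overlap. The receptor message stayed above the enzyme message in every library. Both values enter the contrast that chose the genes, so no test is given.

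Corrected for gene length, the order of the 7 messages differed between the surfaces. On the scaffold, Plaur was highest at 1349 ± 74.9 normalised reads per kb, followed by Mmp3 at 592 ± 52.7, Plau at 427 ± 34.0 and Mmp10 at 165 ± 19.1. Mmp19 at 109 ± 11.2, Adamts5 at 69.7 ± 17.8 and Mmp13 at 7.76 ± 1.69 completed the order (SD, n = 3 each). On plates, Plaur at 471 ± 19.1 and Mmp3 at 254 ± 25.8 again led. Mmp19 at 223 ± 1.81 and Adamts5 at 159.7 ± 8.69 came next, followed by Plau at 93.9 ± 6.38, Mmp10 at 30.9 ± 9.18 and Mmp13 at 0.953 ± 0.368. Plau was the third on the scaffold and the fifth on plates, below both Mmp19 and Adamts5 there. Within each surface no neighbours in the order had overlapping ranges, but Mmp3 and Mmp19 on plates came close, with the lowest Mmp3 library at 227 and the highest Mmp19 library at 225 per kb. The length used is that of all annotated exons together, which can exceed the transcript the cells make.

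The 4 matrix metalloproteinase members differed between the surfaces both in their sum and in their mix. Their values enter the contrast that chose the genes, so no test is given. Of 23 matrix metalloproteinase symbols 5 were in the table, and Mmp1b was not counted, so this is not the full mix in the cells. Summed per kb, the 4 members reached 820.0, 879 and 923 on the scaffold, against 515, 474 and 539 on plates. Mmp19 made up 12.5% ± 2.05 of that sum on the scaffold and 44.0% ± 3.24 on plates (SD, n = 3 each). Mmp3 made up 67.7% ± 2.31 on the scaffold and 49.8% ± 1.91 on plates, and Mmp10 18.9% ± 1.81 and 6.003% ± 1.49 in the same order. Mmp13 made up at most 1.04% of the sum in any library. The Mmp3 to Mmp19 ratio was 5.51 ± 1.02 on the scaffold and 1.14 ± 0.12 on plates, a ratio within each library that does not depend on its size factor.

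**Figure D4:**
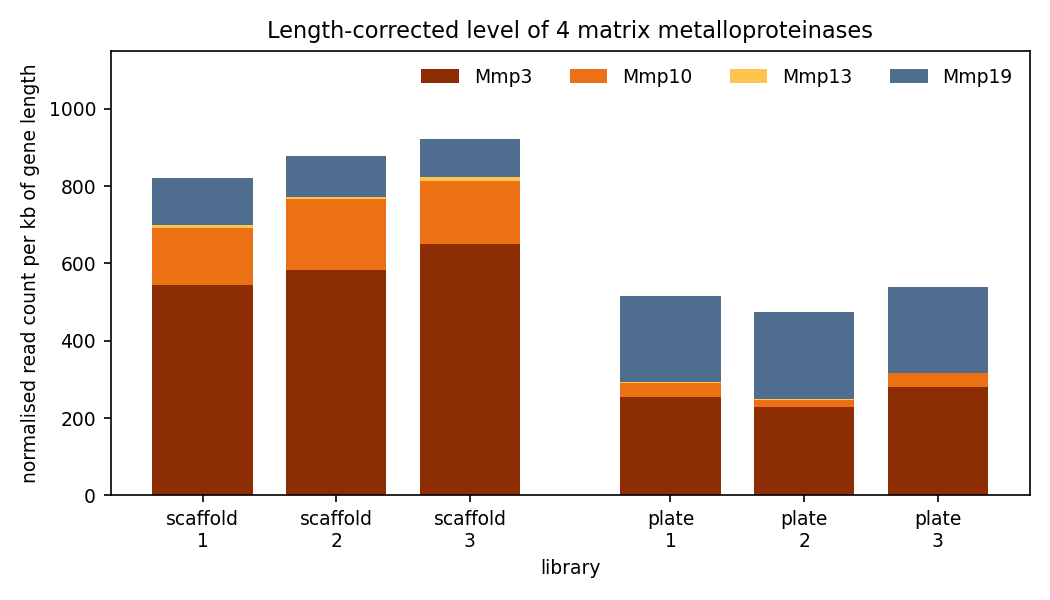
Normalised read count per kb of gene length (vertical axis) of Mmp3, Mmp10, Mmp13 and Mmp19, stacked for each scaffold and plate library. The Mmp19 part is 12.5% of the stack on the scaffold and 44.0% on plates on average, and the stacks are taller on the scaffold.

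The genes with profiles most like each member were found by the root mean square distance between centred log2 profiles over the 6 libraries, among 323 genes with a mean of at least 20. With a pair of groups this distance mostly compares the size of the difference. Plau lay nearest to Egr3, an immediate early transcription factor (distance 0.08), followed by Sema7a and Kcnh2. Plaur lay nearest to Ptges, the inducible prostaglandin E synthase (distance 0.04), followed by Ercc1 and the integrin gene Itgb3. Mmp3 lay nearest to Inhba, an activin subunit (0.06), followed by Gfra1 and Zfand2a.

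Mmp10 lay nearest to Tmem179, Cgref1 and Lgr6, but at larger distances of 0.19 to 0.26. Mmp13 lay nearest to Chrna1, a muscle acetylcholine receptor subunit (0.15), which like it was highest in scaffold replicate 3. Mmp19 lay nearest to S1pr3, a sphingosine 1-phosphate receptor (0.02), followed by Fam198b and Col1a2. Adamts5 lay nearest to Sphk1, sphingosine kinase 1, Adam23 and Adamts2, each at 0.09. Scaffold replicate 1 stood highest of the scaffold libraries in all of these neighbours of Mmp19 and Adamts5. The distance that chose the neighbours uses these same library values, so nothing is read from a shared highest replicate. Among the members themselves, Mmp19 and Adamts5 (0.16) and Mmp3 and Plaur (0.17) were the closest pairs.

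Other genes of the protease network were looked up in the table by list, with limma calls at an adjusted p of 0.05 beside the 99.7% called over the whole table. Of 23 matrix metalloproteinase symbols 5 were present, 4 higher and 1 lower, and all but Mmp1b were members. Of 24 ADAMTS and ADAMTS-like symbols 3 were present, 1 higher and 2 lower. Beside Adamts5, these were Adamts2, the procollagen N-proteinase, at 323, 251 and 210 on the scaffold, against 589, 594 and 591 on plates, and Adamts20. Adamts20, a versican-cutting protease, was at 18.5, 15.9 and 30.7 on the scaffold, against 11.03, 3.09 and 6.66 on plates (log2 difference 1.597, SE 0.45). The groups did not overlap in either gene.

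Of 20 urokinase system symbols 3 were present, all higher, beside 32.2% higher in the whole table. Plau and Plaur are members that this contrast chose, so nothing is read from that count. The 1 other gene was Itgb3, the beta 3 chain of the vitronectin receptor, a known partner of the urokinase receptor. Itgb3 was at 499, 631 and 624 on the scaffold, against 198, 197 and 222 on plates, a log2 difference of 1.499 (SE 0.13) beside 1.52 for Plaur. The plasminogen activator inhibitors of the list, tissue plasminogen activator and plasminogen were not in the table, nor was any of 10 metalloproteinase inhibitor symbols, the TIMP genes included. For those genes nothing can be said here beyond that. Of 23 other pericellular protease symbols, Dpp4 was present and lower, at 5.14, 4.24 and 0.990 on the scaffold, against 17.5, 15.4 and 6.66 on plates (log2 difference -1.73, SE 0.54). Both rescalings ended its call, with adjusted p = 0.0842 at equal medians and adjusted p = 0.158 with quantile normalisation (limma). Protease genes off the list went both ways. For example, Prss22, Klk10, Klk8 and Tmprss11b were higher (log2 differences 1.96, 1.52, 1.16 and 1.14). Pappa2 and C1s1 were lower (-1.46 and -1.34).

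Of 45 symbols of matrix proteins that such enzymes can cut, 10 were present, all lower, beside 67.5% lower in the whole table. Their median log2 difference was -1.29, beside -1.38 among all called lower genes. Col17a1, a collagen gene in the table but not on the list, was higher (log2 difference 1.04). Tnn, the matrix glycoprotein tenascin-W, was at 8.23, 20.1 and 10.9 on the scaffold, against 49.7, 51.5 and 50.4 on plates. Lama2, a laminin chain, was at 16.5, 21.2 and 18.8 on the scaffold, against 38.6, 39.1 and 38.1 on plates. The groups did not overlap in either gene. The others were Col1a1, Col1a2, Col11a1, Col12a1, Ogn, Lama5, Thbs1 and Mfap5. Both rescalings ended the calls of Lama2 and Lama5. Quantile normalisation put Col1a2 at 0, as it does any gene of equal rank in every library, so nothing is read from that.

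Of 30 symbols of AP-1, ETS and related transcription factors, 4 were present and all 4 were higher, with a median log2 difference of 1.78, beside 32.2% higher in the whole table. Fosb, the only AP-1 gene among them, was at 190.2, 151 and 174 on the scaffold, against 55.2, 57.6 and 69.5 on plates. Egr3 was at 498, 441 and 506 on the scaffold, against 120.4, 99.8 and 119.9 on plates. Egr1 and Egr2 were the other two. The groups did not overlap in any of the 4, and no ETS gene of the list was in the table. Transcription factor genes off the list went both ways. Among them, Bach2, Npas4 and Nr4a3 were lower (log2 differences -1.83, -1.82 and -1.60), while Sox9 and Foxc2 were higher (1.31 and 1.04).

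**Figure D5:**
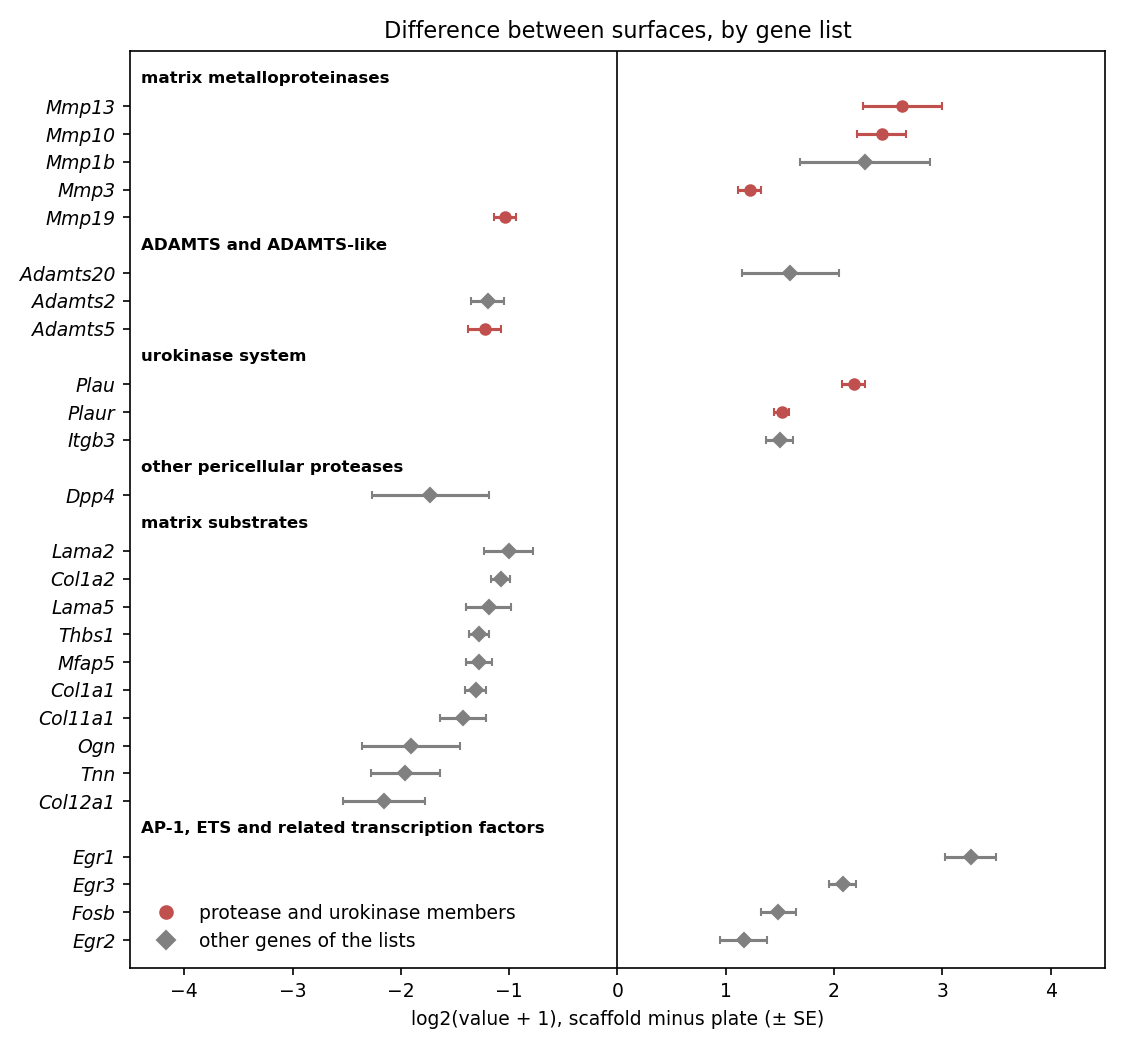
Difference in log2(value + 1) between scaffold and plate (horizontal axis, ± SE from limma) for the 7 members (circles) and the other genes of each list that were in the table (diamonds). Mmp13, Mmp10, Mmp3, Plau and Plaur lie to the right of 0 with the listed transcription factors, and Mmp19 and Adamts5 to the left with all 10 listed matrix substrates.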

How the data were processed

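The 6 libraries were grouped by their labels. The submitters' processing notes list GRCm39 as the build and, as tools, fastp, HISAT2, HTSeq and DESeq2, with no versions or roles. As deposited, a value is a signal, the reads of a gene over the size factor of its library. Although the table names say FPKM, 100% of values in each library came out as whole numbers, to within 0.01 read, once divided by 1 constant for that library. For scaffold replicate 3 that constant lay too close to 1 for its reads to be accepted, so its reads entered no count test. All 581 gene identifiers were found in GENCODE M21, 555 with the same start and end, so coordinates are given on GRCm38. Differences in log2(value + 1) were fitted with limma 3.58.1 (R 4.3.3), allowing the variance to follow the mean and using no block. P-values were two-sided and adjusted by Benjamini and Hochberg over all genes, since the minimum mean of 0.5 removed none. The members and gene lists were chosen with earlier results of these data known. Named genes, as counted over the alternative settings, are the members, all list symbols in the table and the 3 nearest profiles of each member. Genes mentioned as off the lists were not counted. The design had planned protein features, which are not reported here. Intervals cover counting error only. No permutation p is given, since 3 libraries a group allow none below 0.1 in an exact test. The alternatives changed the pseudocount (0.1, 0.01), the minimum mean (none, 5) and the scaling (equal medians, quantile normalisation), added a replicate block, dropped the trend, used edgeR 4.0.16 on the reads of 5 libraries, or left out each library. The fits were also run on simulated counts that were not selected on the contrast, so that run does not bear on the p-values given here. Every p rests on the spread among these 6 libraries alone, and that spread may be technical. No replicate pair with accepted reads agreed within sampling noise (chi-square per degree of freedom 1.93 to 8.48).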

Additional observations from a re-analysis of the deposited data

How the results depend on the processing

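Over 15 alternative settings, 0 of 105 member values changed sign. Because the same contrast chose the genes, this is no evidence of stability. The value nearest to 0 was that of Mmp19 with equal medians, a log2 difference of -0.28. It was the 1 member value that lost its call (adjusted p = 0.0535, limma). The number of genes called lower was 392, and became 208 with equal medians and 212 with quantile normalisation. Both rescalings use only these selected genes, most of which were lower, so they cannot test the deposited scaling. When single libraries were left out, log2 differences ranged from 1.14 to 1.29 in Mmp3, 2.17 to 2.59 in Mmp10, 2.47 to 2.85 in Mmp13, -1.12 to -0.98 in Mmp19, -1.42 to -1.12 in Adamts5 and 1.48 to 1.56 in Plaur. Same-numbered libraries showed little shared deviation (correlations of deviations -0.03, 0.07 and 0.06). No pairing by number was seen, but genes selected on the group difference cannot exclude it. With the replicate number as a block, 188 genes were called higher and 392 lower, against 187 and 392 without it. The edgeR count test on 5 libraries called 189 higher and 391 lower. Of 36 other named genes, 0 reversed in any setting. Depth limits Mmp13 and Mmp1b, with at most 4 plate reads in any library.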
